A study of Mus musculus with 4 samples.

Results

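The cytosolic ribosomal proteins are the protein part of the ribosome that translates nuclear-encoded mRNAs. Their genes were chosen by name on the array, from names of the form Rps or Rpl with a number, together with Rpsa, Rplp0, Rplp1 and Rplp2, and without the Rps6k kinases and named pseudogenes. In all 83 names matched, and 81 of them, of 22819 genes measured, had a probe well above background on at least 1 array. The others, Rpl10l and Rpl39l, reached that level nowhere. All 81 were well above background on all 4 arrays, so none of their differences is a bound. By role, 31 code for small-subunit proteins, 42 for large-subunit proteins and 3 for the P stalk of the large subunit, and 5 are paralogues (Rpl3l, Rpl7l1, Rpl22l1, Rps27l and Rps4l). The record behind the Rps4l probe is that of a non-coding transcript.

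The samples were 3D-retinas, retina-like tissue that forms in floating culture out of mouse iPS cells (reprogrammed, pluripotent cells) that carry the Nrl-GFP reporter, a green fluorescent protein under the control of a rod photoreceptor gene. Brightly fluorescent ones received the compounds on day 23 of differentiation and were harvested on day 25, and 24 of them were pooled for each array. 4-Hydroxytamoxifen (4-OHT), the active metabolite of the oestrogen receptor modulator tamoxifen, was given at 5 µM in 3 of the groups. The 4 groups received 4-OHT and vitamin E (a lipid-soluble antioxidant, 400 µM), 4-OHT and lutein (a carotenoid of the macula, 200 nM), 4-OHT alone, or vehicle (ethanol). Each group had 1 array, so no difference has a replicate check, no test was possible, and the group cannot be told apart from the position of its array on the slide. Because the pools are whole tissue, fewer cells of a type and less RNA per cell cannot be told apart either.

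Cells hold ribosomal protein mRNAs in large and closely matched amounts. Most of these mRNAs belong to the 5′ TOP class, which begins with a C followed by a run of pyrimidines, and their translation is switched by the kinase mTOR through LARP1 and the 4E-BP proteins. An array measures the amount of an mRNA and not its translation. Photoreceptors, which renew part of their outer segments daily, make protein at a high rate.

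The sequences at the starts of these genes are shown because the TOP class is defined there. RefSeq (GRCm38.p6) gave 72 promoters for 60 of the 81 members. From the annotated start, on the gene's own strand only, an unbroken run of C and T of at least 5 letters that begins with C was found in 13 of the 72 (18.1%), one in each of 13 genes, against 823 of all 32851 promoters in that table (2.51%). This is a description of the letters at 1 annotated position. In the 60 letters printed for each of 4 genes, 40 before and 20 from the start, capitals mark that run, of 13, 11, 10 and 9 letters. The windows (GRCm38.p6) are chr14:18270967-18271026 for Rpl15, chr2:39005112-39005171 for Rpl35, chr17:27635225-27635284 for Rps10 and chr17:33955646-33955705 for Rps18, all on the minus strand.
Rpl15: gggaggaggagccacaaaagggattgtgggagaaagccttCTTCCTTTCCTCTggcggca
Rpl35: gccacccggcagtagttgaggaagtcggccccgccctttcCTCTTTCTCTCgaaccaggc
Rps10: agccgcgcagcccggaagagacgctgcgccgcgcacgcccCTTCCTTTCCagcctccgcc
Rps18: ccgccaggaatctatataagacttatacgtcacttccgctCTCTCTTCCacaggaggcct

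A second pair of sequences sets part of a paralogue's probe beside a probe of its parent gene. Rpl3l codes for a form of the large-subunit protein Rpl3 known from heart and skeletal muscle. The last 27 letters of its probe line up with the first 27 of a probe for Rpl3, and capitals mark the 20 letters that are identical there, with 7 different. The rest of the Rpl3l probe was not compared with Rpl3, and whether the Rpl3l probe also reads Rpl3 mRNA was not tested. The Rpl3 probe is placed by the file at chr4:112627797-112627856 (mm9, minus strand), whereas the Rpl3l probe is unmapped in the file. RefSeq puts Rpl3 on chromosome 15 and Rpl3l on chromosome 17.
Rpl3l probe: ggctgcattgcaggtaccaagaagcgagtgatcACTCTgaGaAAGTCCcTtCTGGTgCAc
Rpl3 probe: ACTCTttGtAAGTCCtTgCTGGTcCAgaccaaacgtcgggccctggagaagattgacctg

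Most of the ribosomal protein genes differed little between the 4 arrays. Levels are given as log2 of the processed signal relative to the 75th percentile of the array's gene spots, and a difference is the log2 level on 1 array minus that on another. Over the 4 arrays, the range of a gene's level had a median of 0.18 among the 76 members without paralogues, against 0.30 among 1220 other genes at least as bright as the dimmest of them and 0.44 among 13127 genes with a gene symbol detected on all arrays. The range ran from 0.07 for Rpsa to 0.36 for Rpl32. On this scale none of the 76 ranged over 1.5-fold, whereas 319 of the 1220 bright genes did. The only error that the arrays give is between spots. For 255 probes printed 10 times each, a difference had a spot-to-spot SD of 0.16 (log2). It was 0.06 for the 3 of them at least as bright as the dimmest of the 76 members.

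**Figure D1:**
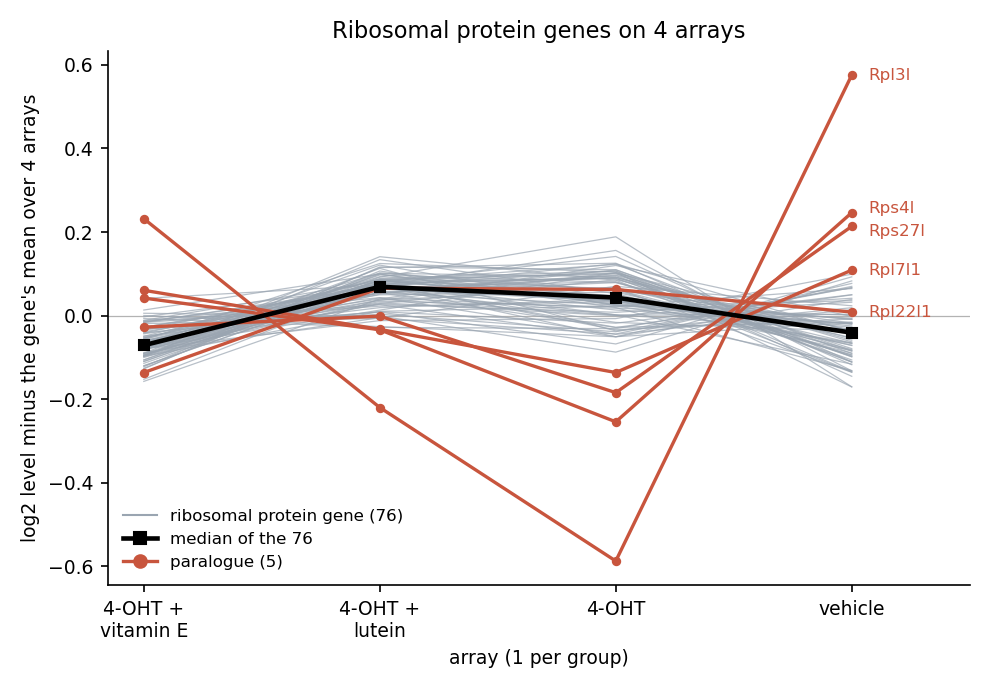
Log2 level of each gene minus its own mean over the 4 arrays, by array, with a line joining the values of 1 gene. The 76 members without paralogues (grey, median in black) lie close together, whereas 4 of the 5 paralogues (red), Rpl22l1 being the exception, are highest on the vehicle array and lowest on the 4-OHT array, as on the spike-in scale except that Rpl7l1 is highest with vitamin E there.

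Within their small range the members were not spread evenly over the arrays, by counts that were made for the members only. Whether other genes were spread alike was not tested. Of the 81, 0 were highest and 40 lowest on the array with vitamin E, 35 were highest and 0 lowest on the array with lutein, 29 were highest and 14 lowest on the array with 4-OHT alone, and 17 were highest and 27 lowest on the vehicle array. The order depends on the scaling: on the spike-in scale 46 were highest and 0 lowest with vitamin E, 23 highest and 0 lowest with lutein, 0 highest and 76 lowest with 4-OHT, and 12 highest and 5 lowest with vehicle. The probes of the 76 without paralogues held 4.46% of the summed signal of all gene spots with vitamin E, 4.86% with lutein, 4.97% with 4-OHT alone and 4.475% with vehicle.

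The comparison of 4-OHT with vehicle asks how ribosomal protein mRNAs stood after the drug alone. The median log2 difference of the 81 members was 0.09, against -0.06 for all 22098 genes compared and -0.12 for the genes with a gene symbol, so the members' median lay 0.21 above that of genes with a symbol. On this scale 57 of 81 members were above 0, where 45.1% of all genes were. Scaling on the spike-in probes, however, put the members' median at -0.15 and 5 of 81 above 0. With that scaling 6200 of all 22098 genes were above 0, and the median of all genes was -0.31. Relative to the median of genes with a symbol, a measure that a shift of the whole array does not change, 74 of 81 members were above it, with 54.9% of all genes above the same value. Of the 81 differences 53 lay within the spot-to-spot SD of all 255 probes, and 23 within that of the 3 bright ones. Of all 22098 genes 5381 and 2069 lay within these SDs, and of the 1220 other bright genes 415 and 152. Neither SD covers the spread between pools. At 1.5-fold or more in either direction there was 1 member, Rpl3l, against 28.6% of all genes, and at 2-fold or more again 1, against 10.9% of all genes.

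The small-subunit genes had a median difference of 0.13, with 24 of 31 above 0, and the large-subunit genes one of 0.08, with 30 of 42 above 0; with spike-in scaling each difference for this comparison is 0.24 lower, which turns both signs. Rpl32, a large-subunit protein, had the highest difference. Its level was 7.62 with vitamin E, 7.83 with lutein, 7.92 with 4-OHT and 7.56 with vehicle. The 4-OHT array was highest and the vehicle array lowest, a difference of 0.36.

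Rps27, a zinc-finger protein of the small subunit, had levels of 8.01 with vitamin E, 8.18 with lutein, 8.27 with 4-OHT and 7.98 with vehicle. The arrays with vitamin E and with vehicle were near each other and below the others. Rpl10, a large-subunit protein that joins late in assembly, had levels of 7.70 with vitamin E, 7.88 with lutein, 7.86 with 4-OHT and 7.59 with vehicle. The lutein and 4-OHT arrays were highest, and vehicle lowest. Rpl22, a large-subunit RNA-binding protein, had levels of 6.42 with vitamin E, 6.61 with lutein, 6.67 with 4-OHT and 6.42 with vehicle. Rps16, of the small subunit, had levels of 7.85 with vitamin E, 7.99 with lutein, 8.01 with 4-OHT and 7.76 with vehicle. In both, the lutein and 4-OHT arrays were above the others. On the spike-in scale Rpl32, Rps27, Rpl10, Rpl22 and Rps16 were all lowest with vehicle, with 4-OHT next.

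At the other end, the lowest large-subunit gene was Rpl36a, encoded on the X chromosome, with levels of 5.73 with vitamin E, 5.73 with lutein, 5.64 with 4-OHT and 5.81 with vehicle. The vehicle array was highest (that with vitamin E on the spike-in scale) and the 4-OHT array lowest, a difference of -0.17. The lowest small-subunit gene was Rps25, a protein used by some viral RNAs to start translation, at -0.16. The large-subunit genes Rpl39 at -0.13 and Rpl3 at -0.11 came next.

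The P stalk binds the elongation factors. Rplp0, its base, had levels of 8.09 with vitamin E, 8.20 with lutein, 8.27 with 4-OHT and 8.10 with vehicle. Rplp1, one of the acidic proteins bound to Rplp0, had levels of 8.40 with vitamin E, 8.50 with lutein, 8.48 with 4-OHT and 8.52 with vehicle. Its partner Rplp2 had levels of 8.19 with vitamin E, 8.33 with lutein, 8.27 with 4-OHT and 8.24 with vehicle. All 3 were lowest on the array with vitamin E, but on the spike-in scale all 3 were lowest on the 4-OHT array.

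Rpsa, the small-subunit protein also known as a laminin receptor precursor, had levels of 8.13 with vitamin E, 8.17 with lutein, 8.18 with 4-OHT and 8.11 with vehicle, the narrowest range of the members. Rps27a, made as a fusion with ubiquitin, had levels of 8.19 with vitamin E, 8.35 with lutein, 8.39 with 4-OHT and 8.23 with vehicle. For Rps27a the 4-OHT array was highest and the array with vitamin E lowest, and on the spike-in scale this order was turned round.

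Of the 5 paralogues 4 stood below every other member with 4-OHT against vehicle and above every other member with vitamin E against 4-OHT. The medians of the 5 were -0.40 and 0.20. Rpl3l had levels of -1.02 with vitamin E, -1.47 with lutein, -1.84 with 4-OHT and -0.67 with vehicle. It was 2.24-fold lower with 4-OHT than with vehicle, a log2 difference of -1.16, which was -0.84 and so under 2-fold with another background correction (normexp). Adding vitamin E to 4-OHT gave a 1.76-fold higher level than 4-OHT alone, and its difference with lutein against 4-OHT was 0.37. Its processed signal was 139 on the 4-OHT array and 354 on the vehicle array, read by a single probe with 1 spot per array.

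Rps4l, which resembles Rps4x, had levels of 1.16 with vitamin E, 1.09 with lutein, 0.87 with 4-OHT and 1.37 with vehicle. Its difference with 4-OHT against vehicle was -0.50. Rps27l, a paralogue of Rps27 that p53 induces in human cells, had levels of 5.18 with vitamin E, 5.21 with lutein, 5.03 with 4-OHT and 5.43 with vehicle. Its difference with 4-OHT against vehicle was -0.40, beside 0.29 for Rps27. Rpl7l1, which resembles Rpl7, had levels of -0.61 with vitamin E, -0.70 with lutein, -0.80 with 4-OHT and -0.56 with vehicle. All of these were highest with vehicle and lowest with 4-OHT, except that on the spike-in scale Rpl7l1 was highest with vitamin E.

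Rpl22l1, the paralogue of Rpl22, did not follow them. Its levels were 5.18 with vitamin E, 5.38 with lutein, 5.37 with 4-OHT and 5.32 with vehicle. The array with vitamin E was lowest and the others lay within 0.06 of vehicle, while on the spike-in scale 4-OHT was lowest. Each paralogue was read by 1 probe, and for Rpl3l and Rps27l the file gives no genome position.

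**Figure D2:**
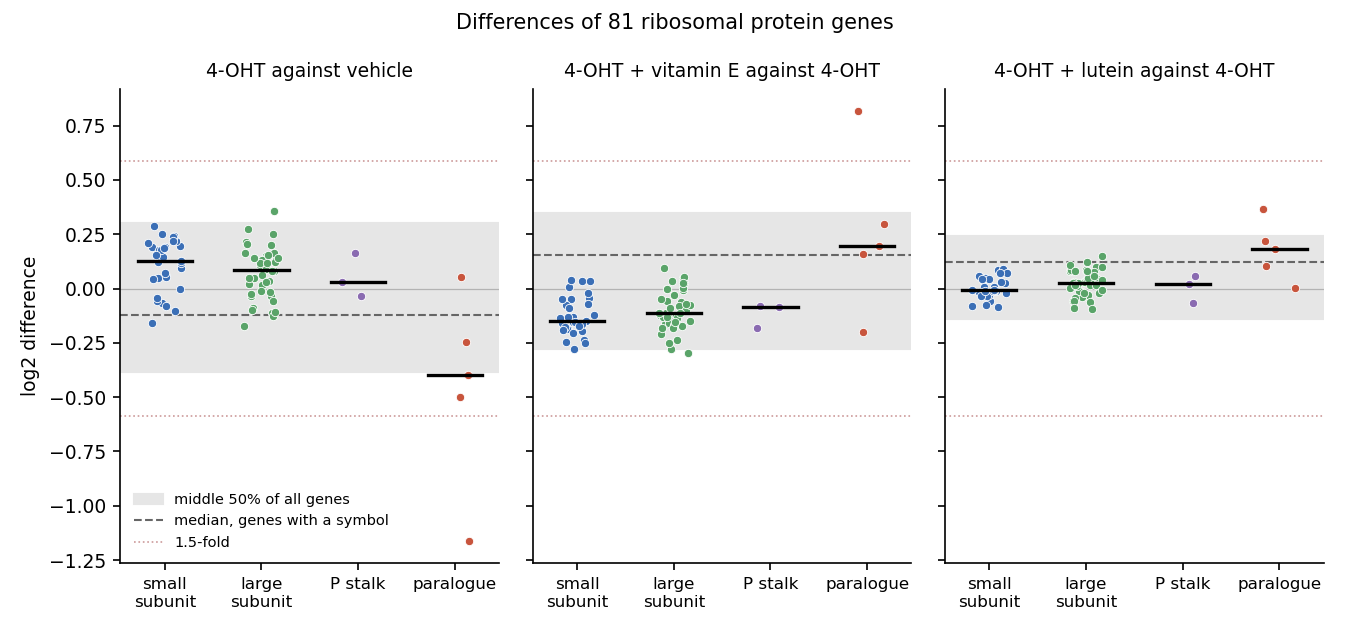
Log2 difference of each of the 81 members in 3 comparisons, by role, with the median of each role as a bar, the middle 50% of all genes in grey, the median of genes with a symbol dashed and 1.5-fold limits dotted. Subunit and P-stalk genes stay inside the 1.5-fold limits in each panel, and Rpl3l lies outside them in 2; on the spike-in scale the points of the first panel would sit 0.24 lower and those of the other panels 0.35 and 0.18 higher.

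With vitamin E added to 4-OHT, the median difference of the members against 4-OHT alone was -0.12, against 0.08 for all 22164 genes and 0.16 for genes with a symbol. On this scale 66 of 81 members were below 0, with 43.1% of all genes below 0. Scaling on the spike-in probes put all 81 above 0 and their median at 0.22. With that scaling the median of all genes was higher, at 0.43, and 17182 of 22164 were above 0. Relative to genes with a symbol the members' median was -0.28, and 77 of 81 lay below that median, with 56.6% of all genes below the same value. The 4 others were paralogues, since 76 of the 76 remaining members lay below it. Rpl3l was the 1 member at 1.5-fold or more, against 24.2% of all genes, and 0 reached 2-fold, against 10.3% of all genes. This comparison and that of 4-OHT against vehicle share the 4-OHT array, so that opposite signs in them are not independent.

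Rpl32 had the lowest difference here, -0.30. Rps23, a small-subunit protein at the decoding centre, had levels of 6.57 with vitamin E, 6.77 with lutein, 6.85 with 4-OHT and 6.73 with vehicle. Rpl13a, a large-subunit protein that also acts in translational silencing in human myeloid cells, had levels of 6.92 with vitamin E, 7.14 with lutein, 7.19 with 4-OHT and 7.03 with vehicle. Both were lowest with vitamin E and highest with 4-OHT, with differences of -0.28 each, but lowest with 4-OHT on the spike-in scale. The highest differences were those of the paralogues Rpl3l at 0.82, Rps4l at 0.30 and Rpl7l1 at 0.20.

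With lutein added to 4-OHT, the members stood almost where they were with 4-OHT alone. Their median difference was 0.02, against 0.08 for all 22025 genes and 0.12 for genes with a symbol. Of the 81 differences 78 lay within the spot-to-spot SD of all 255 probes and 54 within that of the 3 bright ones. Of all 22025 genes 8303 and 3355 lay within these SDs, and of the 1220 other bright genes 687 and 328. On this scale 50 of 81 members were above 0, with 61.8% of all genes above 0, and the sign of the median turned to -0.03 with quantile normalization. Spike-in scaling gave a median of 0.20 with 81 of 81 above 0. With that scaling the median of all genes was 0.26, and 17063 of 22025 were above 0. Relative to genes with a symbol the median was -0.10, and 76 of 81 members lay below that median, with 55.9% of all genes below the same value. None reached 1.5-fold or 2-fold, against 13% and 5.01% of all genes. Rpl36, of the large subunit, with levels of 7.77 with vitamin E, 7.86 with lutein, 7.95 with 4-OHT and 7.81 with vehicle, was among the lowest at -0.09, between Rpl32 at -0.10 and Rps27 at -0.08. The highest were Rpl3l at 0.37, Rps4l at 0.22 and Rps27l at 0.18.

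Set against vehicle, the members with 4-OHT and vitamin E had a median of -0.03, with 53 of 81 below 0, against 52.9% of all genes, and a range from -0.34 for Rpl3l to 0.16 for Rps4x, while on the spike-in scale the median was 0.07 and 65 of 81 were above 0. None was at 1.5-fold or more, against 11.1% of all genes. With 4-OHT and lutein against vehicle the median was 0.11, with 63 of 81 above 0, against 48.6% of all genes. This median was smaller on the spike-in scale but still above 0. Rpl3l, at -0.80, was the 1 member at 1.5-fold or more, against 15.1% of all genes. Between the supplements, the median with vitamin E against lutein was -0.12 and 75 of 81 were below 0, against 47.6% of all genes, while on the spike-in scale this median was 0.05 and 56 of 81 were above 0. None was at 1.5-fold or more, against 11.1% of all genes. Counts of all genes on the spike-in scale were not made for these comparisons. They share arrays with each other and with the comparisons above.

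How far a probe reads the named gene bears on all of these values. Ribosomal protein genes have many processed copies in mammalian genomes, and 185 probes carry the names of the 81 members, 1 to 7 for each. Of the 182 with a position in the file, 125 (68.7%) were placed on a chromosome other than the one RefSeq gives for the gene, against 782 of 27754 probes (2.82%) of other genes. Of the chosen probes 27 lay on the gene's own chromosome, 52 on another, and 2 were unmapped. Rpl10 is such a case: its gene is on the X chromosome, and its 3 probes were placed on chromosomes 12, 8 and 9, the one shown here at chr8:109451709-109451768 (mm9, minus strand).
Rpl10 probe: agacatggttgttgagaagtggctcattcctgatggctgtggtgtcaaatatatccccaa
The differences of these 3 probes with 4-OHT against vehicle were 0.28, 0.29 and 0.36. No mm9 gene models were used here, so exons and UTRs are not given.

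Probes of the same gene more often gave 1 sign than both, by a margin that differed between comparisons. With 4-OHT and vitamin E against vehicle, 33 members had probes of 1 sign and 25 of both. With lutein against 4-OHT these counts were 38 and 20. For 4-OHT against vehicle, 58 members had at least 2 probes detected on all arrays, 47 with 1 sign and 11 with both, and the median gap between a gene's highest and lowest probe was 0.07. The widest was 0.70, for Rps15a, where the chosen probe gave 0.22 and a dim probe on the gene's own chromosome 7 gave -0.48. Rpl13a had a gap of the same kind in the other direction: its chosen probe, placed on the X chromosome, gave 0.16, and its other 2, both on its own chromosome 7, gave 0.78 and 0.79, past 1.5-fold. With vitamin E against 4-OHT those 2 gave -0.60 and -0.55, beside -0.28 for the chosen probe. Of 177 detected probes of the 76 members without paralogues, 15 had a mean level under 3, and all 15 lay on the gene's own chromosome. Whether the chosen probes read the gene, its copies or both was not tested.

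**Figure D3:**
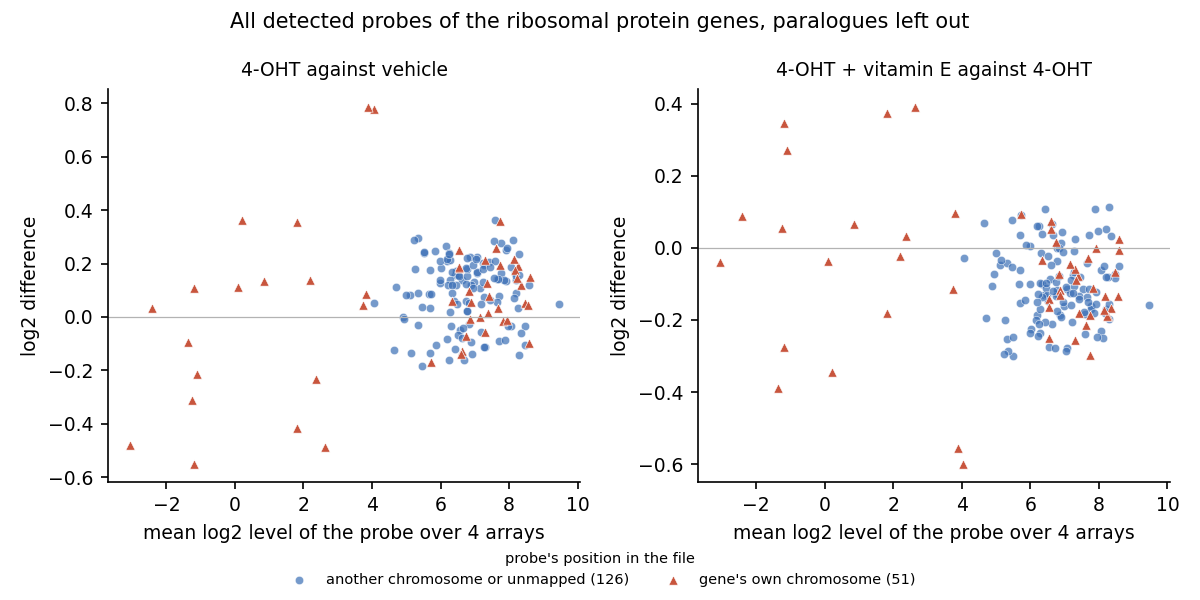
Log2 difference against mean log2 level for the 177 probes of the 76 members without paralogues that were detected on all arrays, for 2 comparisons, with the 51 probes placed on the gene's own chromosome as triangles and the 126 others as circles. Most bright probes of both kinds share 1 narrow band, and the 15 probes under level 3, all triangles, spread more widely. Outside the band also lie 2 Rpl13a triangles at levels 4.05 and 3.87, with differences of 0.78 and 0.79 in the first panel. In the second panel they are at -0.60 and -0.55. Spike-in scaling would move all points of the first panel down by 0.24 and of the second up by 0.35.

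Of the cytosolic ribosomal proteins outside the naming rule, Fau, Gnb2l1 and Rpl36al had differences with 4-OHT against vehicle inside the band of the members. Fau, a fusion of a ubiquitin-like protein with a small-subunit protein, had levels of 8.38 with vitamin E, 8.55 with lutein, 8.57 with 4-OHT and 8.37 with vehicle. Gnb2l1, the small-subunit scaffold RACK1, had levels of 8.11 with vitamin E, 8.34 with lutein, 8.47 with 4-OHT and 8.20 with vehicle. Rpl36al, the autosomal copy of Rpl36a, differed by 0.06 with 4-OHT against vehicle, and Gnb2l1 by 0.27. With vitamin E against 4-OHT Gnb2l1 differed by -0.36, below the lowest member.

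The other 5′ TOP genes and elongation factors had a median of 0.09 with 4-OHT against vehicle, which was 0.21 above genes with a symbol and is below 0 on the spike-in scale. Eef2, which moves the ribosome along the mRNA, had levels of 6.59 with vitamin E, 6.80 with lutein, 6.78 with 4-OHT and 6.41 with vehicle. Eef1a1, which delivers aminoacyl-tRNA, had levels of 7.29 with vitamin E, 7.50 with lutein, 7.51 with 4-OHT and 7.29 with vehicle. For both, the lutein and 4-OHT arrays were above the others, whereas on the spike-in scale 4-OHT was also below vitamin E. Of the 21 genes 1 was past 2-fold, where 10.9% of all genes were: Snhg1, a TOP-class host of small nucleolar RNAs, had levels of 0.59 with vitamin E, 1.64 with lutein, 1.996 with 4-OHT and 0.62 with vehicle. Tpt1 differed by 0.26 and Npm1 by 0.09 with 4-OHT against vehicle.

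The mitochondrial ribosomal proteins, which build the separate ribosome of the organelle, and the proteasome subunits lay on the other side of the median of genes with a symbol in these comparisons. With 4-OHT against vehicle the median of the 76 mitochondrial genes was -0.45, with 3 above 0, where 45.1% of all genes were, and 19 at 1.5-fold or more lower, where 13.5% of all genes were. That of the 36 proteasome subunits was -0.50, with 1 above 0 and 9 at 1.5-fold or more lower. On the spike-in scale these medians were -0.70 and -0.74, on the same side of 0 as that of the members. With vitamin E against 4-OHT the medians were 0.35 and 0.31, and with lutein against 4-OHT 0.24 and 0.23. None of these genes reached 2-fold in the 3 comparisons, but with spike-in scaling 4 mitochondrial genes were 2-fold or more lower with 4-OHT than with vehicle, where 7.38% of all genes were. The initiation factors and ribosome biogenesis factors had medians of -0.11 and -0.03 with 4-OHT against vehicle, within 0.09 of genes with a symbol.

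**Figure D4:**
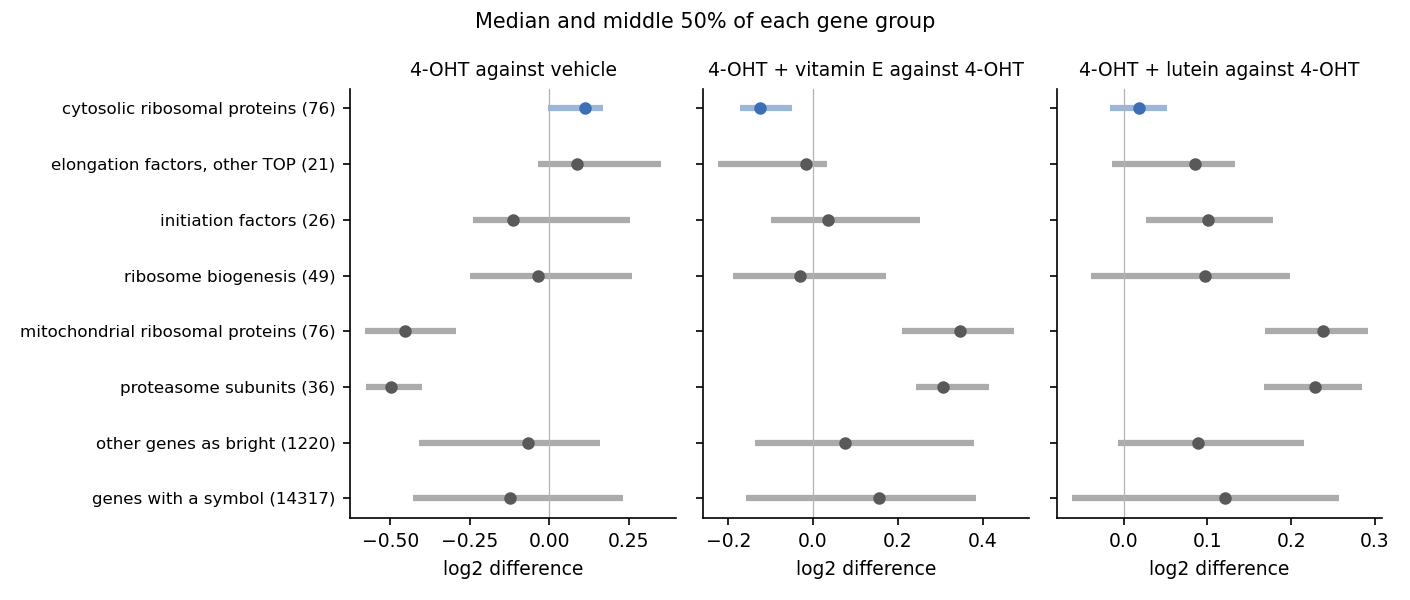
Median (dot) and middle 50% (bar) of the log2 differences of 8 gene groups in 3 comparisons, with the number of genes in brackets. The cytosolic ribosomal proteins (blue) have a narrow bar near 0, while mitochondrial ribosomal proteins and proteasome subunits lie lower with 4-OHT than with vehicle and higher with either supplement than with 4-OHT alone; spike-in scaling would move all groups of a panel together, by -0.24, 0.35 and 0.18.

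Among 49 biogenesis genes 2 were higher by 2-fold or more with 4-OHT than with vehicle, where 7.74% of all genes were, and on the spike-in scale 1 was, Noc2l, where 5.42% of all genes were. Noc2l, a nucleolar protein of large-subunit assembly, had levels of -1.31 with vitamin E, -0.53 with lutein, 0.32 with 4-OHT and -1.85 with vehicle. Gnl3 (nucleostemin) had levels of -0.82 with vitamin E, 0.06 with lutein, 0.38 with 4-OHT and -0.64 with vehicle. With vitamin E both lay below 4-OHT alone by 2-fold or more, as did Noc3l, the partner of Noc2l, at -1.09; 8.8% of all genes did, and on the spike-in scale Noc2l was the 1 of the 49 that did. Ncl (nucleolin), by contrast, differed by -0.10 with 4-OHT against vehicle.

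Among 27 regulators of mTOR, MYC and TOP mRNAs 4 were higher by 2-fold or more with 4-OHT than with vehicle, where 7.74% of all genes were, and 0 were lower by as much, where 3.17% of all genes were. The median of the 27 was nonetheless -0.06, with 12 above 0 and 15 below, where 45.1% of all genes were above 0. On the spike-in scale that median was -0.30, with 10 above 0, where 6200 of all 22098 genes were. Eif4ebp1 codes for 4E-BP1, the cap-binding inhibitor that acts on TOP mRNAs. Its levels were 2.37 with vitamin E, 4.55 with lutein, 4.72 with 4-OHT and 1.97 with vehicle. The arrays with 4-OHT alone and with lutein were high, and those with vitamin E and vehicle low, a difference of 2.75 for 4-OHT against vehicle. Myc, a transcription factor that drives ribosome synthesis, had levels of -3.06 with vitamin E, -1.91 with lutein, -1.41 with 4-OHT and -3.65 with vehicle. Myc was well above background on all 4 arrays, but with vitamin E and with vehicle it was dimmer than Rpl3l. Its difference with normexp is not given here. Sesn2, a stress-induced inhibitor of mTOR, differed by 1.32 and Pdcd4, an inhibitor of the helicase eIF4A, by 1.13, which is under 2-fold on the spike-in scale and leaves 3 of 27.

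In the list for ribosome quality control and nucleolar stress 2 of 15 genes were higher by 2-fold or more with 4-OHT, where 7.74% of all genes were. Cdkn1a, the p53 target p21, had levels of 0.81 with vitamin E, 2.64 with lutein, 2.88 with 4-OHT and 1.30 with vehicle, and Gtpbp2, a GTPase that rescues stalled ribosomes, differed by 1.06, which is under 2-fold on the spike-in scale. Mdm2, the p53 inhibitor that free Rpl5 and Rpl11 bind, differed by 0.09. Rpl5 and Rpl11 differed by 0.03 and -0.03.

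Values of the whole tissue stand beside these. The 12 rod markers were detected on all arrays, and with 4-OHT against vehicle their median was -1.50, with a log2 summed signal of 10.31 with vitamin E, 9.82 with lutein, 9.43 with 4-OHT and 10.80 with vehicle. The log2 summed signal of 6 Müller glia markers was 6.39 with vitamin E, 7.02 with lutein, 7.44 with 4-OHT and 6.21 with vehicle, with a median difference of -0.05 for 4-OHT against vehicle. In that comparison the median was 0.60 for cone, -0.17 for progenitor and -0.61 for bipolar markers. It was -0.30 for amacrine and horizontal, -0.17 for ganglion and -0.12 for pigment epithelium markers. The log2 summed signals of bipolar and pigment epithelium markers were nonetheless higher with 4-OHT (5.39 and 3.53) than with vehicle (4.62 and 1.57). Not detected on any array were the cone marker Opn1mw, the pigment epithelium markers Rpe65 and Best1, the pluripotency markers Pou5f1 and Zfp42, the mesenchymal marker Col3a1, the amacrine and horizontal cell marker Calb1 and the microglia markers Aif1, Cx3cr1 and C1qa. The other markers of these lists were detected on at least 1 array. They were 5 of 6 cone, 4 of 6 pigment epithelium, 2 of 4 pluripotency and 3 of 4 mesenchymal markers. Of the amacrine and horizontal cell markers 5 of 6 were detected, and of the microglia markers 1 of 4. The part of the cell mixture in the members' differences was not tested. Differences also moved with brightness: with 4-OHT against vehicle the median over all genes was 0.19, -0.01, -0.14 and -0.17 in 4 equal classes from the dimmest to the brightest. It was -0.07 among the 1220 other genes at least as bright as the dimmest member without paralogues. Of the genes past 2-fold, 71.0% were higher with 4-OHT, and 42.3% on the spike-in scale. For vitamin E and lutein against 4-OHT these shares were 14.4% and 23.7%, and 52.3% and 41.3% on the spike-in scale.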

How the data were processed

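Total RNA of 4 pools was labelled with Cy3 and read on 1-colour mouse arrays. The submitters' processing notes name Agilent Feature Extraction, version 10.7.3.1. Each deposited spot intensity was, per the file headers, background-subtracted, with no normalization between arrays. The lutein file holds 3 significant digits and 57 altered names, so names came from the vehicle file. The authors' deposited value table holds signal intensity divided by 1 number per array (469 with vitamin E, 479 with lutein, 434 with 4-OHT, 494 with vehicle), with column medians of 0.0736, 0.0847, 0.0949 and 0.0794 in that order; it is neither logged nor centred. Outlier spots (137 to 164 per array) were left out of 59305 gene spots, of which 51.3% to 54.5% were well above background. No spot was saturated.

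Log2 intensity minus the 75th percentile was averaged per probe, and the brightest probe stood for a gene. Fold limits were 2 and 1.5, with no test, since 1 array per group limits the precision. The members, gene lists and named genes were chosen with earlier results of these data known. All 4 values are given for the 5 highest and 5 lowest members of 4-OHT against vehicle, the 3 highest and 3 lowest of each supplement, the paralogues, the P stalk, Rpsa and Rps27a. Symbols and chromosomes came from RefSeq GRCm38.p6. The steps, run with Python 3.11.15, pandas, and limma for normexp (offset 50), were tested on simulated data. Alternatives were other scalings, background correction, filters, probes and member sets.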

Additional observations from a re-analysis of the deposited data

How the results depend on the processing

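No paired analysis was possible because groups held 1 array each, and no replicate could be left out. Scaling on spike-in probes (the 8 of 10 detected on every array) shifted the median of all genes by -0.24, 0.35 and 0.18 for 4-OHT against vehicle, vitamin E against 4-OHT and lutein against 4-OHT; setting the median of genes with a symbol to 0 shifted it by 0.12, -0.16 and -0.12. Spike-in scaling gave members' medians of -0.15, 0.22 and 0.20 in these comparisons, with 5, 81 and 81 of 81 above 0 and 3 and 2 past 1.5-fold in the first and second and 1 past 2-fold in the second. The medians of all genes were then -0.31, 0.43 and 0.26, with 6200 of 22098, 17182 of 22164 and 17063 of 22025 above 0. For the members, spike-in scaling gave medians of 0.0736, 0.0424 and 0.0456 for vitamin E against vehicle, lutein against vehicle and vitamin E against lutein, with 65 above 0 in the first and 56 above 0 and 1 past 1.5-fold in the last. With the symbol median at 0 the medians were 0.21, -0.28 and -0.10, and 4, 5 and 3 members were above 0 for vitamin E and lutein against 4-OHT and vitamin E against lutein. Quantile normalization gave a median of -0.0294 and 23 above 0 for lutein against 4-OHT, and 10 above 0 for vitamin E against lutein. A scaling by 1 number per array, spike-in scaling included, cannot change a median relative to genes with a symbol, so such scalings are no check of it. Under quantile normalization, normexp and the filters, probe rules and member sets tried, these relative medians kept their sign in the 3 first comparisons. They ran from 0.16 to 0.24, from -0.30 to -0.22 and from -0.11 to -0.08. The members were detected on all arrays, so the filters mainly changed the genes they were set against. With the main scaling and the chosen probes Rpl3l was the 1 member past 1.5-fold wherever there was one. With normexp 0 members passed 2-fold for 4-OHT against vehicle and 0 passed 1.5-fold for vitamin E against 4-OHT or lutein against vehicle, and without the 5 paralogues 0 passed 1.5-fold or 2-fold; 3 of these 76 were above 0 for vitamin E against lutein. A lower limit, 0.32 on the log2 scale, counted 4 members for 4-OHT against vehicle and 1 in each other comparison, and a limit of 1.5-fold 1 for vitamin E against 4-OHT and 1 for lutein against vehicle. Probes on the gene's own chromosome, an alternative chosen after seeing the data, covered 44 members: 30, 29 and 34 were above 0 for 4-OHT against vehicle, lutein against 4-OHT and lutein against vehicle, 0 passed 2-fold in the first and 2 passed 1.5-fold in the last. For the 19 named members 504 of 576 recomputed values moved by no more than the spot-to-spot SD of a difference, and the 72 that moved more included all 57 under spike-in scaling. Detection filters, and array shifts smaller than that SD, could not move a value by more, so part of the 504 was fixed in advance. The 57 under spike-in scaling were fixed in advance too, since its shifts of -0.24, 0.35 and 0.18 were each larger than that SD. With 1 array per group, differences of this size could not be tested.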
